A study of Homo sapiens with 12 samples.

Results

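Broad domains of histone H3 trimethylated at lysine 27 (H3K27me3) were described in HepG2/C3A cells, a clonal derivative of the HepG2 hepatocellular carcinoma line. Peaks of 4 H3K27me3 libraries, read on chromosomes 1 to 22, X and Y, were merged where they overlapped into 16111 regions. A region was kept as a broad domain where a peak of each library overlapped it by at least 1 bp and where it spanned at least 50 kb. This gave 727 domains, 17.4% of the 4169 regions shared by all 4 libraries, and the other 3442 shared regions are called narrower regions. The members were therefore chosen from H3K27me3 peaks, and all H3K27me3 values below are descriptions without a test.

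The libraries were made by CUT&Tag, in which an antibody guides a transposase to chromatin and the released fragments are sequenced. Cells were given 10 mM sodium succinate or served as controls for 48 h, and the controls are named a vehicle only in the design text. Each treatment had 2 H3K27me3 libraries and 2 libraries made with an antibody to succinylated lysine on any protein (Ksu), so 8 of the 12 samples were analysed and the 4 IgG samples were not used here. Both treatments used the same line and the same medium, and the line is known to carry extra copies of several chromosomes, which were not measured here. Peak lists hold no read depth and allow no counting interval, and tests between treatments measure only the spread between 2 libraries each.

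H3K27me3 is written by Polycomb repressive complex 2, whose catalytic subunit is EZH2 or EZH1, and is removed by the Jumonji demethylases KDM6A and KDM6B. The EED subunit binds the mark and stimulates further methylation nearby, which is the textbook account of how it spreads over long stretches of chromatin. In differentiated cells the mark is known to cover silent regulators of other lineages, with the HOX clusters as the classic case. Lysine succinylation is a modification of histones and many other proteins that draws on succinyl-CoA.

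Sequences from 2 kinds of elements show what lay inside these domains. The first are the 250 bases upstream of 4 transcription starts, those of the HOX and PAX genes in the widest domains that hold such a start. They are from RefSeq on GRCh38.p14, are written 5′ to 3′ on the gene's strand, and have each CG dinucleotide in capitals. PAX7 (chr1:18630596-18630845, plus strand) directs muscle stem cells, and PAX2 (chr10:100735146-100735395, plus strand) directs kidney development. HOXC4 (chr12:54016638-54016887, plus strand) and HOXB1 (chr17:48531012-48531261, minus strand) pattern the body axis, and HOXC5 shares the listed start of HOXC4.
PAX7: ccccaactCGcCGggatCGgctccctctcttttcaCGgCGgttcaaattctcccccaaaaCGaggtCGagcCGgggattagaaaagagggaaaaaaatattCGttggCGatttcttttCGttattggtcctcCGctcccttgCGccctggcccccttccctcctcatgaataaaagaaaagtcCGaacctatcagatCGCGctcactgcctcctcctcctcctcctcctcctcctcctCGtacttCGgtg
HOXC4: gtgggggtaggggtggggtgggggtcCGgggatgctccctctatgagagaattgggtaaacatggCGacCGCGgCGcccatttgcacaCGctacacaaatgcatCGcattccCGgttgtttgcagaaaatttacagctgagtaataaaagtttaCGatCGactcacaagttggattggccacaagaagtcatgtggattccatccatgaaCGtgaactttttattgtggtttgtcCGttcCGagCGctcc
PAX2: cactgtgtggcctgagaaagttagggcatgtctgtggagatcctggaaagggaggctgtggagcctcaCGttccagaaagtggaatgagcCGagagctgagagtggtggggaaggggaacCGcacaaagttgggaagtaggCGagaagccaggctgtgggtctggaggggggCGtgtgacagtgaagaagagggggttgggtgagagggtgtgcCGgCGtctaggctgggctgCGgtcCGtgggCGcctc
HOXB1: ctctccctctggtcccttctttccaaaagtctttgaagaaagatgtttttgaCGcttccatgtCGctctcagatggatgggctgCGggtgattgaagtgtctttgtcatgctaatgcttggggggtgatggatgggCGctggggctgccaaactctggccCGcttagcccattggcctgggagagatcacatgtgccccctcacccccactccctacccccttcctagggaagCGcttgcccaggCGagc
All 4 stretches lay wholly under H3K27me3 peaks in all 4 libraries. They held 18, 14, 10 and 7 CG dinucleotides in the order printed, with observed to expected CG ratios of 1.05, 0.888, 0.531 and 0.343. The stretches of PAX7 and HOXC4 were free of Ksu peaks in every library. The PAX2 stretch was under a Ksu peak over 20.8% of its bases in succinate replicate 1 alone, and that of HOXB1 over 18.8% in control replicate 2 and 19.6% in succinate replicate 2 alone.

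The second kind are mature microRNAs whose genes lay in broad domains, picked after their positions were known because they belong to tissues other than liver or to HOX clusters. They are from RefSeq, are written 5′ to 3′, and have the seed (bases 2 to 8) in capitals.
hsa-miR-10a-5p: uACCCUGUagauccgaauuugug
hsa-miR-196a-5p: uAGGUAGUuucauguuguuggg
hsa-miR-615-3p: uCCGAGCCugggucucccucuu
hsa-miR-9-5p: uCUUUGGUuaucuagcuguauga
hsa-miR-218-5p: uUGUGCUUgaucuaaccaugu
hsa-miR-1-3p: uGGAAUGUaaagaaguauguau
hsa-miR-133a-3p: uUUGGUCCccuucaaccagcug
hsa-miR-375-3p: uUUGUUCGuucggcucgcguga
No seed was shared between these 8 microRNAs. Only genes inside broad domains are named, and a mature microRNA listed here may also come from genes outside them. MIR10A and MIR196A1 lay in the HOXB domain, and MIR196A2 and MIR615 lay in the HOXC domain. MIR9-1 and MIR9-3, genes of the neural miR-9, lay in domains of 58.7 and 79.3 kb on chromosomes 1 and 15. The muscle microRNA genes MIR1-1 and MIR133A2 lay in the 249.2 kb domain that also holds GATA5 on chromosome 20. MIR218-2 lay in a 114.3 kb domain on chromosome 5 and MIR375, known from pancreatic islets, in a 72.1 kb domain on chromosome 2. Of 1774 microRNA genes with a hairpin or mature entry in the RefSeq table, 136 (7.67%) had one in a broad domain. Of these, 42 lay in a single 71.5 kb domain on chromosome 14 whose first microRNA is MIR379, and 10 more in the nearby 61.4 kb domain over RTL1, a gene expressed from the paternal copy.

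The domains together covered 60.7 Mb, which was 42.1% of the length of all shared regions and 1.99% of the chromosomes. Their median width was 71.0 kb (quartiles 58.4 and 91.2 kb), 145 spanned at least 100 kb and 18 at least 200 kb. The narrowest were 3 domains of 50.09, 50.05 and 50.04 kb, over MROH7 and TTC4 on chromosome 1, between genes on chromosome 17, and over IP6K3 and LEMD2 on chromosome 6. Just below the limit lay regions of 49.97 kb at NEFH, 49.97 kb without a gene on chromosome 11 and 49.96 kb at GRID2IP, so the limit separates regions of nearly one width. Only 2 merged regions of 50 kb or more were left out for lack of a library. They lay on chromosomes 10 (50.4 kb) and 12 (62.2 kb), overlapped no protein-coding gene and had no peak of control replicate 2.

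The widest domain spanned 467.6 kb on chromosome 17 (chr17:79084570-79552141) over RBFOX3, the neuronal splicing factor known as NeuN, and the edge of ENGASE. H3K27me3 peaks covered 97.6% and 95.1% of it in controls and 98.8% and 100% after succinate. It was cut into 3 and 6 peaks in controls, 2 in succinate replicate 1 and a single peak in succinate replicate 2. Ksu peaks covered 4.38% and 5.62% of it in controls and 18.4% and 13.9% after succinate. Both succinate libraries were above both control libraries in this share, while relative to each library's share of the chromosomes the treatments overlapped, at 1.67 and 0.927 against 2.98 and 1.29. With its neighbours, 564.7 kb of the 576.2 kb RBFOX3 gene (98.0%) lay in 3 broad domains.

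**Figure D1:**
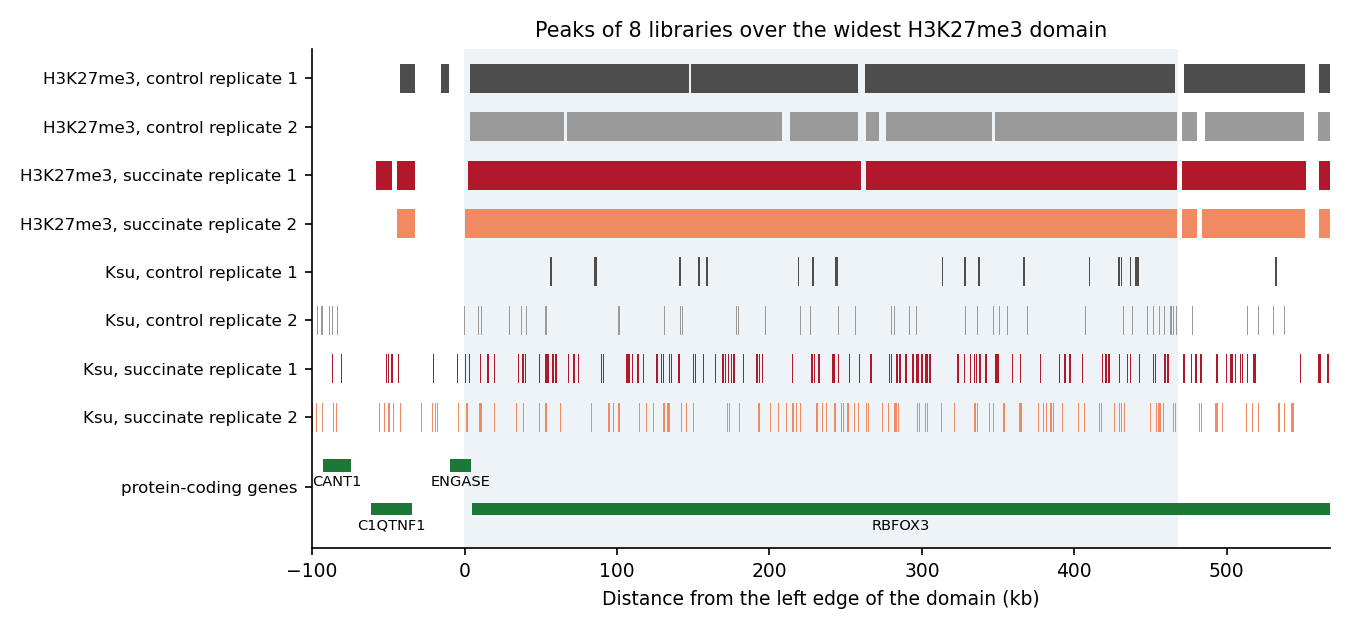
Peaks of the 4 H3K27me3 and 4 Ksu libraries over the widest domain and 100 kb on each side, by distance from the left edge of the domain (kb). Shading marks the domain, and bars at the bottom are protein-coding genes, drawn without strand. H3K27me3 forms 1 to 6 blocks per library within the domain, with further blocks beyond its edges, and Ksu peaks are short and scattered.

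The other members of the 15 widest included genes of the nervous system and of cell adhesion. CDH4, CDH22 and CDH23 encode cadherins and lay in domains of 289.3, 254.5 and 234.6 kb. CELF4, a neuronal RNA-binding protein, lay in one of 289.1 kb, and LINGO1, which limits myelination, in one of 251.9 kb. Further members included MDGA1 (259.6 kb), GATA5 with 3 more genes (249.2 kb), CASZ1 (246.1 kb), SDK2 (233.0 kb), RUNX3 (229.5 kb), CACNA2D2 with TMEM115 and C3orf18 (209.8 kb), BAHCC1 (206.7 kb) and LAMC3 with 3 more genes (206.1 kb). Over these 15, H3K27me3 cover was at least 80.2% in every library. All 15 overlapped a protein-coding gene, as did all 51 domains of 150 kb or more. Of the 414 domains under 75 kb, 94 (22.7%) overlapped none. These counts were not matched for width, and a wider domain can touch a gene by width alone. Listed starts per Mb were 9.11 in domains under 75 kb and 5.28 in those of 150 kb or more.

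Of the 4 HOX clusters, all but HOXA lay partly or wholly in broad domains. The HOXC domain (chr12:53920844-54065463, 144.6 kb) held all 9 HOXC genes. Its H3K27me3 cover was 97.3% and 88.2% in controls and 98.0% and 99.6% after succinate. HOXB1 to HOXB9 lay in a domain of 135.1 kb (chr17:48515842-48650921) covered over 91.8% and 84.5% in controls and 97.4% and 90.8% after succinate, and HOXB13 lay in a separate domain of 70.5 kb. HOXD13 to HOXD9 and the adjoining EVX2 lay in a domain of 60.7 kb (chr2:176066023-176126703). In all, 24 of 39 HOX genes touched a broad domain, and a further 9, namely HOXD3, HOXD4, HOXD8 and 6 HOXA genes, touched a narrower region.

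Ksu cover of the HOX domains was lower in controls than after succinate. In the HOXC domain it was 2.59% and 3.43% in controls and 11.9% and 20.6% after succinate. In the HOXB1 to HOXB9 domain it was 3.09% and 5.80% in controls and 14.0% and 19.0% after succinate. The HOXD domain had 1.98% and 3.45% in controls and 6.64% and 14.7% after succinate. In each, both succinate libraries lay above both control libraries, also after division by the share over the chromosomes. After this division the same held for 47.9% of all 727 broad domains and 40.7% of all shared regions. It is therefore not particular to the HOX domains.

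In total 896 of 20037 RefSeq protein-coding genes (4.47%) touched a broad domain and 1929 (9.63%) touched a narrower region only. Lists of genes named by symbol were counted beside this share. Of 315 genes for developmental transcription factors, 67 (21.3%) touched a broad domain and 105 (33.3%) a narrower region only. The broad share was highest for HOX genes and was 3 of 9 for PAX (PAX7, PAX2 and PAX5), 2 of 6 for GATA (GATA5 and GATA3), 27 of 136 for other homeobox genes and 6 of 46 for forkhead genes. It was 1 of 19 for SOX (SOX8), 1 of 17 for T-box (TBX1) and 3 of 43 for the neurogenic helix-loop-helix list (ASCL5, BHLHE23 and ATOH8). Narrower regions alone held 6 PAX, 51 other homeobox, 12 forkhead, 4 SOX, 5 T-box and 16 helix-loop-helix genes, more than the broad domains did, as was also the case over all genes. PAX7 lay in a domain of 157.4 kb, CDX1, an intestinal regulator, in one of 160.0 kb, and DLX3 and DLX4 together in one of 140.9 kb.

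Genes for signalling and membrane proteins were also counted. Of 45 genes of WNT ligands, receptors and antagonists, 11 touched a broad domain, among them WNT7B (140.4 kb), RSPO1 (83.3 kb) and WNT4 (77.2 kb). Ephrin receptor genes gave 4 of 14, with EPHB2 (186.1 kb), EPHB3 (176.5 kb), EPHA8 (156.8 kb) and EPHA2 (64.0 kb). Voltage-gated calcium channel genes gave 9 of 26, led by CACNA2D2 and CACNA1I (205.1 kb), and potassium channel genes 23 of 95. Neurotransmitter receptor genes gave 11 of 103 and cadherin genes 4 of 23. Keratins and keratin-associated proteins gave 11 of 149, of which KRT76, KRT3, KRT4, KRT78 and KRT79 shared a domain of 81.4 kb on chromosome 12. These counts need 1 bp of the gene body and were not matched for gene length. By listed starts in broad domains, they were 9 of 31 for WNT, 3 of 13 for ephrin receptors and 3 of 17 for calcium channels. They were 12 of 71 for potassium channels, 5 of 76 for neurotransmitter receptors, 1 of 12 for cadherins and 6 of 114 for keratins. Of all listed starts, 2.97% lay in broad domains.

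Further lists were counted in the same way. None of 392 olfactory receptor genes, 53 clustered protocadherin genes or 69 replication-dependent histone genes touched a broad domain. By at least 1 bp of the gene body, 22 of the protocadherin genes touched a narrower region. Of 47 listed protocadherin starts, however, 1 (2.13%) lay in a narrower region, beside 6.67% of all listed starts. Zinc finger genes gave 7 of 509 (1.38%). None of 24 plasma protein genes, 19 hepatocyte markers such as ALB and APOA1, or 10 housekeeping genes touched a broad or narrower region. Of 55 cytochrome P450 genes 3 touched a broad domain (5.45%, beside 4.47% of all genes), namely CYP11A1, CYP26B1 and CYP46A1, which act in steroid synthesis, retinoic acid breakdown and brain cholesterol turnover. Among 39 genes for PRC2 subunits and chromatin dioxygenases, HR on chromosome 8 was the single one in a broad domain (52.3 kb).

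**Figure D2:**
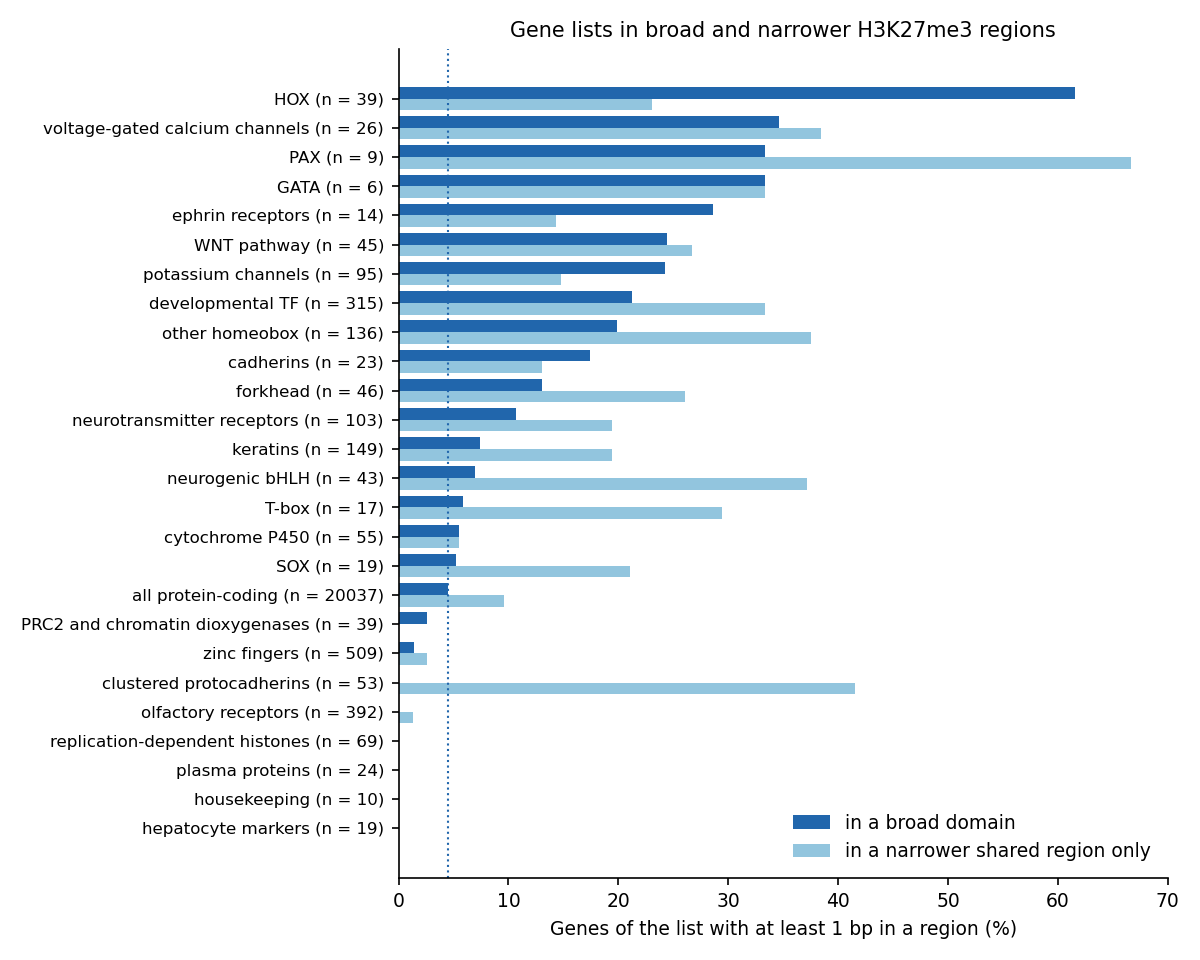
Share of each gene list (%, horizontal axis) with at least 1 bp in a broad domain (dark bars) or in a narrower shared region only (light bars), with the number of genes in brackets. The dotted line is the broad share of all protein-coding genes, 4.47%. HOX genes reach 61.5% and 6 lists stand at 0 in broad domains.

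Gene bodies took up 53.4% of domain bases, against 44.6% in narrower regions and 41.3% of the chromosomes. In the 51 domains of 150 kb or more the share was 65.5%. There were 140 domains without a protein-coding gene, 357 with 1, 141 with 2 and 89 with 3 or more, and 105 lay wholly inside a single gene. Of the 896 genes, 505 had at least 90% of their length in broad domains, and 66 were in 2 or more domains. ZNF423, a zinc finger regulator of neural and fat cell development, had 297.4 of its 371.8 kb in 4 domains. PRDM16, which directs brown fat, had 316.9 of 369.4 kb in 3, and GLI2, a transcription factor of Hedgehog signalling, had 227.6 of 256.8 kb in 3. Of 704 gaps between neighbouring domains along a chromosome, 205 (29.1%) were at most 100 kb and 6 at most 1 kb, with a median of 399.8 kb. The smallest gaps were 54 bp inside KCNT1 and 57 bp inside ZNF423.

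Domains were spread unevenly over the chromosomes. They took up 8.68% of chromosome 20, 6.48% of chromosome 17 and 5.43% of chromosome 22. Chromosome 19 had 1.17% in broad domains and 5.00% in narrower regions. Chromosomes 13 and X had 1 domain each and Y had none. Within 10 Mb of a chromosome end lay 40.9% of broad domains, 32.9% of narrower regions and 15.8% of all 50 kb windows.

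**Figure D3:**
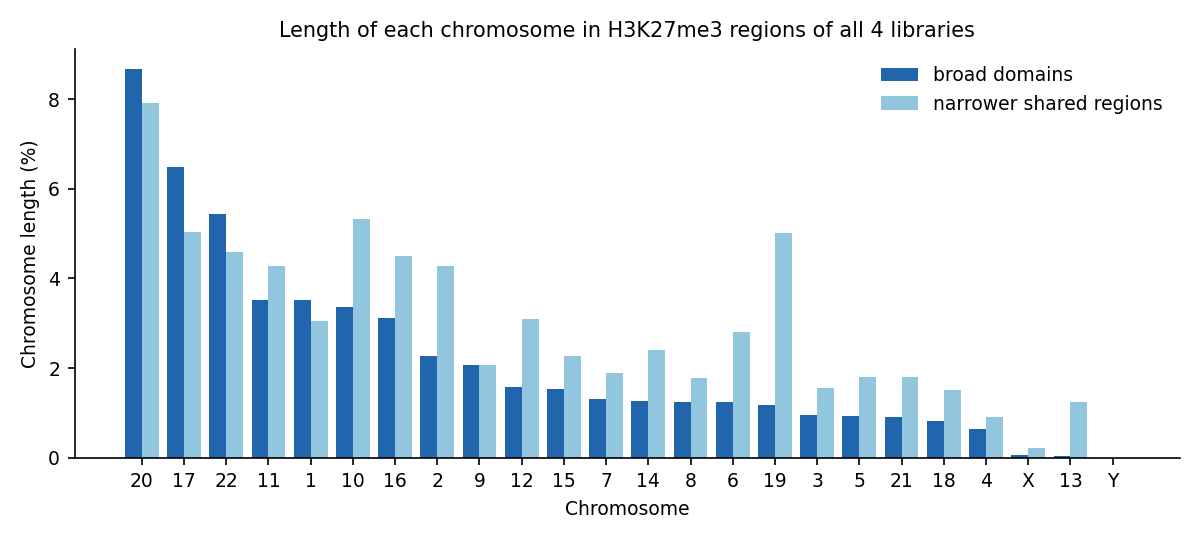
Share of the length of each chromosome (%, vertical axis) in broad domains (dark bars) and in narrower shared regions (light bars), with chromosomes ordered by the broad share. Chromosome 20 leads with 8.68%, while on most chromosomes, such as 10 (3.37% broad and 5.34% narrower), narrower regions take up more.

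Listed transcription starts inside domains were 471 of 15842 (2.97%), and none of the starts used lies on chromosome 8. Of the 704 domains elsewhere, 336 (47.7%) held a start. H3K27me3 peaks lay over 93.4% and 83.4% of the 471 starts in controls and 93.6% and 93.8% after succinate, close to the cover of domain bases as a whole. A peak was missing at the start in 3 of the 4 libraries for 24 genes, such as ACTR5, ACSF3 and KCNC4, which were picked after their values were seen. In the 300 bases around the start (250 before and 50 after), the median observed to expected ratio of CG was 0.684 for starts in broad domains, 0.651 for those in narrower regions and 0.763 for all. CG is its own complement, and 98.1% of all such windows and 99.6% of those in broad domains hold at least 1. The median GC content was 66.0% in broad domains and 62.7% for all. The point of highest H3K27me3 signal was within 2 kb of a start in 5.26% and 5.68% of domains in controls and 5.26% and 5.11% after succinate, against 2.70% for domain midpoints.

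The H3K27me3 libraries filled the domains to different degrees. Peaks covered 88.7% and 80.1% of domain bases in controls and 92.5% and 91.7% after succinate. Succinate libraries were above both control libraries, and control replicate 2 was lowest. The log2 difference was 0.13 (pooled SD 0.07, n = 2 per treatment). It was 0.20 without control replicate 1 and 0.05 without control replicate 2. It was 0.21 where all libraries were held to a common lowest total signal, counted in each library's own step of signal. With equal numbers of peaks per library the shares over the same domains were 82.9% and 79.7% in controls and 90.9% and 91.7% after succinate. All 4 libraries covered 72.3% of domain bases together, against 59.1% in narrower regions.

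Both succinate libraries covered more of the domain than both control libraries in 347 of 727 domains, where 34.5% of all 4169 shared regions did. The opposite held in 37 domains, where 7.08% of shared regions did. Since the domains were chosen from these peaks, nothing is read from these counts. The largest rise was in GSE1, which encodes a chromatin protein, where 23.5% and 22.3% of 60.6 kb were covered in controls and 97.2% and 68.8% after succinate. Next were a domain without a gene on chromosome 9 and those at EGFL7 and AGPAT2, in CACNA1C, and at MROH7 and TTC4. The largest fall was in SLIT3, an axon guidance factor, with 92.2% and 100% in controls and 48.2% and 40.6% after succinate. SYT6, SEMA4D, C1QL2 and KCNIP1 followed, the last with 78.3% and 100% against 58.2% and 73.1%. These domains were 50.1 to 89.3 kb wide.

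The number of peaks within a domain differed more than the cover. Domains held 2112 and 1381 H3K27me3 peaks in controls and 1317 and 953 after succinate. A single peak was found in 123 and 297 of the 727 domains in controls and 333 and 530 after succinate, so control replicate 1 was the most broken up and succinate replicate 2 the least. Over all chromosomes these libraries had 19133, 5813, 9985 and 5531 peaks, in the same order of libraries, and the part of this difference in the counts was not tested. Succinate replicate 2 set the outer edge at 37.7% of the 1454 domain edges and control replicate 2 at 15.9%.

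**Figure D4:**
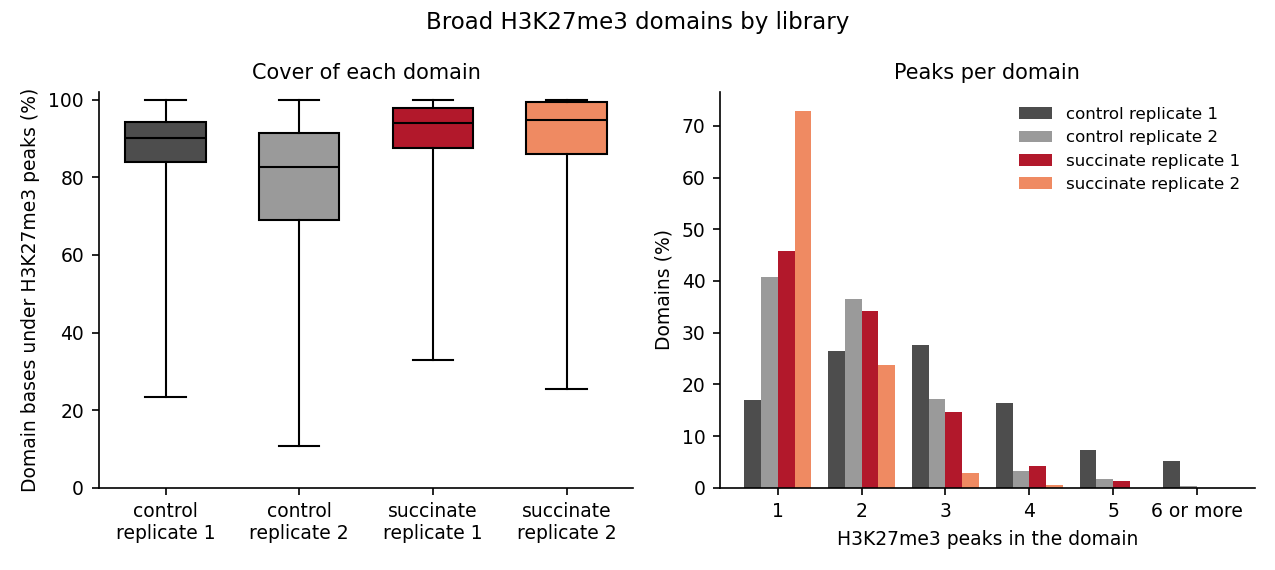
Left, share of each domain under H3K27me3 peaks (%) by library, with median, quartiles and the lowest and highest domain (n = 727 domains per library). Right, share of domains (%) by the number of peaks they hold. Medians run from 82.6% in control replicate 2 to 94.7% in succinate replicate 2, and domains holding 1 peak number from 123 in control replicate 1 to 530 in succinate replicate 2.

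Signal heights were scaled differently in each library and are compared only within one. The common lowest total signal used above is the exception. Per covered base, the median signal of broad domains was 1.28 and 1.31 times that of narrower regions in controls and 1.35 and 1.39 times after succinate. Domains held 38.4% and 50.1% of all peak signal in controls and 44.4% and 50.2% after succinate. The order of domains by signal per base was alike in all libraries, with Spearman's rho between 0.910 and 0.982 over 727 domains that share their edges. The BHLHE23 domain on chromosome 20 (107.6 kb), named for a neural helix-loop-helix factor, had 2.60 and 2.42 times the median domain in controls and 3.15 times in both succinate libraries. It ranked first in 3 libraries and second in control replicate 2.

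Ksu peaks were not used to choose the domains and could be tested. They covered 3.62% and 6.48% of domain bases in controls and 13.2% and 16.1% after succinate. Both succinate libraries were above both control libraries. The log2 difference was 1.59 (pooled SD 0.45, n = 2 per treatment, exact two-sided permutation p = 0.333, the smallest that 6 arrangements allow). Ksu peaks also covered more of the chromosomes after succinate, with 2.63% and 6.07% in controls and 6.16% and 10.8% after succinate. Over these shares, domains were enriched 1.38 and 1.07 times in controls and 2.14 and 1.499 times after succinate, again without overlap. This log2 difference was 0.56 (pooled SD 0.32, exact permutation p = 0.333), and 0.31 without succinate replicate 1. Equal numbers were also used, with the 76702 peaks of highest total signal taken from each library. The log2 ratios were then 0.46 and -0.34 in controls and 1.47 and 0.94 after succinate, a difference of 1.14 (pooled SD 0.48, exact permutation p = 0.333).

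The enrichment was set against closer surroundings. Over the share of their own chromosomes, domains had ratios of 1.15 and 1.07 in controls and 1.76 and 1.38 after succinate. On each of the 19 chromosomes with at least 10 domains the Ksu share in domains exceeded that of the chromosome in both succinate libraries, while in each control library it did so on 10. In the 50 kb on each side of a domain that lay outside any H3K27me3 region, Ksu peaks covered 1.95% and 4.42% in controls and 8.27% and 13.4% after succinate. Domains thus had 1.85 and 1.47 times the share of their flanks in controls and 1.60 and 1.20 times after succinate. In this ratio the treatments overlapped and the log2 difference was -0.25 (pooled SD 0.26, exact permutation p = 0.667). With equal numbers of Ksu peaks it was 0.02 (pooled SD 0.25, exact permutation p = 0.667). The flanks had 0.743 and 0.728 times the share of the chromosomes in controls and 1.34 and 1.25 times after succinate, so the difference between treatments seen over the chromosomes was also present in the flanks. Domains exceeded their flanks in all 4 libraries.

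Broad domains and narrower regions had nearly equal Ksu shares. The log2 ratio of broad to narrower was -0.10 and 0.01 in controls and 0.09 and -0.04 after succinate, with a mean of -0.0098 and an SD of 0.08 over the 4 libraries. Width did not order the Ksu share within the domains either, as Spearman's rho between them lay between -0.0026 and 0.048 over 727 domains in each library. Domains without a protein-coding gene had Ksu ratios to the chromosomes of 1.82 and 1.21 in controls and 2.32 and 1.58 after succinate. Domains that held a start had 1.18 and 0.976 in controls and 2.00 and 1.46 after succinate, lower in every library.

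**Figure D5:**
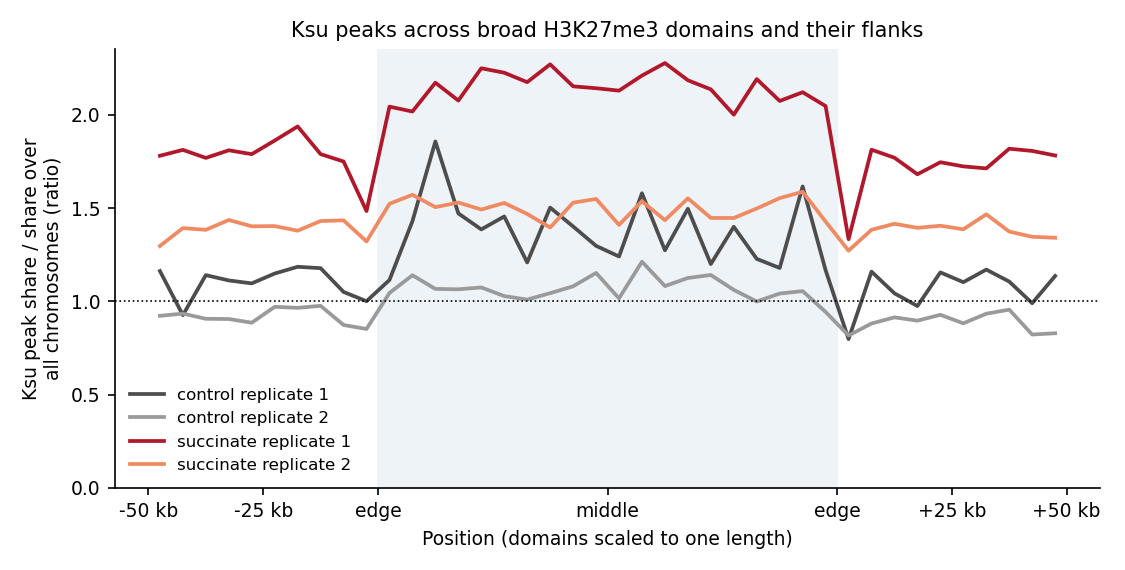
Ksu share divided by the share over all chromosomes (ratio, vertical axis) across the 727 domains, scaled to one length of 20 bins (shaded), and 50 kb on each side in 5 kb bins, with neighbouring H3K27me3 regions kept in. Each line is a library. Ratios are lowest in the bins just outside the edges in succinate replicate 1 (1.48 and 1.33) and stand at 2.04 in the first bin inside the left edge.

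The Ksu share was compared on both sides of the edges of the scaled domains. In the 5 kb bin just outside the left edge the ratio to the chromosomes was 1.00 and 0.85 in controls and 1.48 and 1.32 after succinate. In the first bin inside it was 1.11 and 1.04 in controls and 2.04 and 1.52 after succinate, higher than in the bin just outside in every library. In control replicate 1 the ratio varied between 1.11 and 1.86 across the bins of the domain, and the first bin inside lay below some bins farther out. H3K27me3 peaks covered 13.7% and 5.65% of that outer bin in controls and 11.1% and 7.43% after succinate, against 66.6% and 48.9% and 74.7% and 70.8% in the inner bin. In the outermost bin, which can reach other H3K27me3 regions, cover by H3K27me3 was 39.4% and 32.2% in controls and 42.2% and 37.1% after succinate.

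Single domains were described by whether both succinate libraries lay above both control libraries in the Ksu ratio to the chromosomes. This held for 348 of 727 domains (47.9%), against 40.7% of all shared H3K27me3 regions and 27.7% of 50 kb windows with any Ksu. The opposite held for 15 domains (2.06%), against 3.6% and 17.1%. The PAX7 domain was among the former, with a Ksu share of 4.38% and 9.36% in controls and 20.7% and 25.9% after succinate. So was the domain of the calcium channel gene CACNA1I, with 1.59% and 6.43% in controls and 22.1% and 15.9% after succinate. CELF4 was among the 15, with ratios of 3.45 and 1.91 in controls and 1.70 and 1.32 after succinate. Domains at GLI2, EN1 and EMX2, which direct embryonic patterning, were also among the 15. They are named as examples, and no common theme of the 15 is read from them. No single domain can pass 0.05 with 2 libraries per treatment. Narrower regions and the 50 kb windows are shorter than the domains, and the shares given beside those of the domains were not matched for length.

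By the mean over the 4 libraries, the highest Ksu ratio belonged to the 60.3 kb domain on chromosome 20 that holds the potassium channel gene KCNG1. Its Ksu share was 22.0% and 12.6% in controls and 31.0% and 22.5% after succinate. It was followed by 2 domains without a gene on chromosome 1 and those in PHACTR3 and TMEM163. PHACTR3 is also on chromosome 20, of which Ksu peaks covered 7.58% and 7.52% in controls and 14.7% and 14.1% after succinate. This is above the share over all chromosomes in every library, and the ranking was not corrected for it. The lowest ratio belonged to the domain of the homeobox gene UNCX on chromosome 7 (73.8 kb). No Ksu peak lay there in control replicate 1 or succinate replicate 1, and the other replicates had 3.14% and 12.6%. A 54.7 kb domain without a gene on chromosome 1 was nearly level. With 0.1 added to each ratio its mean log2 was -1.748, beside -1.749 for UNCX. Ksu ratios exceeded 1 in all 4 libraries in 204 domains (28.1%), against 18.0% of narrower regions and 12.4% of windows. Windows were 50 kb long and narrower regions less. These shares were not matched for length, so no difference is read from them. Between libraries the order of domains by Ksu ratio was weakly shared, with Spearman's rho from 0.159 to 0.592 over 727 domains.

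At the starts themselves, in 1000 bp around each, Ksu peaks covered 1.71% and 4.54% of bases in controls and 7.93% and 13.4% after succinate for the 471 starts in broad domains. For starts in neither kind of region the shares were 1.39% and 3.81% in controls and 4.92% and 6.87% after succinate. Starts in broad domains were the higher in every library. Starts in narrower regions had 2.11% and 5.06% in controls, above those in broad domains, and 6.68% and 12.4% after succinate, below them.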

How the data were processed

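CUT&Tag peak lists of 8 libraries were analysed, one list per library. Per the submitters' processing notes, peaks were called with SEACR and the build was hg38. The deposited lists give for each peak its position, total signal and highest signal. In each H3K27me3 library, the distinct highest-signal values below the median were whole multiples of a step of its own. The check covered H3K27me3 libraries only and left out values above the median. The deposited signal was therefore taken as scaled per library, and heights were not compared between libraries. The exception is the common signal floor, which was set on total signal counted in these steps. The aligner, the scaling and the threshold are not given in the sources used here.

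Peaks on 24 chromosomes were merged where they overlapped, and cover was counted in bases, with Python 3.11.15, NumPy 2.4.6 and pandas 2.3.3. Merging and cover were tested on simulated peaks. A chromosome was measured up to the end of its last peak or gene. Genes, starts, promoters and microRNAs came from RefSeq tables of GRCh38.p14, in which 15842 of 20037 protein-coding genes had a start and strand. Printed coordinates count from 1.

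Treatments were compared by mean log2 values with an exact permutation test over 6 arrangements. Domains were ranked by Ksu as log2 of the ratio plus 0.1. Named domains are the 15 widest, the 5 highest and 5 lowest in Ksu ratio, the 5 largest rises and falls in H3K27me3 cover, the 3 on each side of the width limit and those of the HOX clusters, with up to 6 genes per list by width. Some items that this rule names are not reported here. The domains and lists were chosen with earlier results of these data known.

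Alternatives were other widths, equal peak numbers, a common signal floor, stricter presence, leaving out single replicates and a block for the replicate number.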

Additional observations from a re-analysis of the deposited data

Results flagged for a closer look

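H3K27me3 peaks on sequences outside the 24 chromosomes entered none of the values above. They merged into 15 regions, of which 3 were present in all 4 libraries. The widest of these 3 spanned 46.1 kb, so none reached the width of a broad domain. The number of peaks was 16 and 5 in controls and 8 and 4 after succinate. No IgG value was set beside them, so these counts have no background.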

How the results depend on the processing

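Over 9 results, 98 alternative values were computed, of which 5 were chosen after the data were seen. For counts, summed length, the share of developmental factor genes and the promoter CpG ratio a change by more than 1.5 times, and for H3K27me3 cover a change by more than the replicate SD was taken as a move, and this happened in 14. The Ksu differences between treatments could not pass 0.05 and were compared by direction alone, which changed in 1, although the Ksu enrichment reached 1.14 with equal numbers of Ksu peaks. The log2 ratio of broad to narrower regions ran from -0.04 to 0.02, on both sides of 0 and within its SD of 0.08. The width limit set the counts by construction. At 25 kb there were 2139 domains of 110.3 Mb that touched 1915 genes and 37.1% of developmental transcription factor genes, and at 100 kb 145 domains of 21.2 Mb, 270 genes and 9.84%. Counting stretches covered in all 4 libraries gave 196 domains of 13.5 Mb and 249 genes. Counting starts in place of gene bodies gave 471 genes and 13.9%. At a common signal floor the log2 difference in H3K27me3 cover was 0.21. The Ksu enrichment changed direction to -0.25 over the flanks, and was 0.02 there with equal peak numbers. Beyond what these settings change by construction, the cause was not tested. Without each replicate in turn the number of domains was 589 to 705.

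Replicate numbers are shared between treatments, but nothing in the labels says that a number marks a common batch. Deviations of same-numbered libraries correlated over domains with r = 0.15 for H3K27me3 cover and 0.40 for Ksu ratios. With the replicate number as a block the log2 differences were equal by construction, at 0.13 for H3K27me3 cover, 1.59 for Ksu cover and 0.56 for Ksu enrichment (exact permutation p = 0.5 for both Ksu values, the smallest a block allows).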
